A study of Mus musculus with 14 samples.

Results

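Immunoglobulin light chain V segments were described in RNA from leukocytes sorted out of mouse liver. The members were chosen by name: every row of the count table whose Ensembl ID maps to a mouse symbol that begins with Igkv or Iglv. That gave 163 of the 48794 genes listed, of which 160 are kappa and 3 are lambda segments. In at least 1 of the 14 libraries 138 members had a count, and 25 had none.

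The study compared small numbers of sorted cells as starting material for RNA sequencing, with bulk liver as its control. Leukocytes that carry CD45, the surface phosphatase of nucleated blood cells, from liver needle biopsies were sorted by flow cytometry at 2500, 5000, 10000 or 20000 cells, with 3 libraries for each number. Bulk liver tissue gave 2 libraries. All 14 samples were from mice labelled wild type (WT) with no treatment, and the labels used here give no strain, sex or age and do not say whether replicate libraries came from separate mice, so p-values cover just the spread among these libraries, which may be technical.

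An antibody pairs heavy chains with light chains, and a light chain is either kappa or lambda. In each developing B cell 1 V segment is cut and joined to a short J segment, and splicing then links it to the constant region. A B cell that has made a working light chain keeps it, and its daughters carry the same join, so that a large clone adds to 1 V segment. Many unrelated clones use the same V segment, and a segment alone does not identify a clone. Kappa is the commoner light chain in mice, which have very few lambda V segments. Plasma cells, the antibody-secreting descendants of B cells, hold far more light chain RNA per cell than resting B cells. In bulk samples such as these, fewer cells of a type and less RNA per cell cannot be told apart.

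The 3′ ends of 9 segments are shown because the results turn on these members: the 3 lambda segments, the kappa segments that led single libraries or stood at the top of the ranking, and segments that were high in 1 library. Each run is the last 90 bases of the V exon, 5′ to 3′ on the strand of the gene, from GENCODE M21 on GRCm38. Capitals mark the stretch from the conserved cysteine codon to the end of the exon, which is the germline start of the third hypervariable loop. The exon's end is where the J segment is joined.
Iglv1: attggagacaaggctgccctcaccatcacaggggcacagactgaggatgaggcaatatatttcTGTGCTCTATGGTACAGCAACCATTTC
Iglv2: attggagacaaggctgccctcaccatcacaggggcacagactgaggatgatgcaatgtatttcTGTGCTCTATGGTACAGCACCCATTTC
Iglv3: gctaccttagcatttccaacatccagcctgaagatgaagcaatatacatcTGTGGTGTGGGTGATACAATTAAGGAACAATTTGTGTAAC
Igkv6-15: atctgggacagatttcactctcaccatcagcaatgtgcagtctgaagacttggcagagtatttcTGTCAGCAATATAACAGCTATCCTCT
Igkv10-96: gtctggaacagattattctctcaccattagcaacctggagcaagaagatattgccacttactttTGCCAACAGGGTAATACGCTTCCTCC
Igkv4-55: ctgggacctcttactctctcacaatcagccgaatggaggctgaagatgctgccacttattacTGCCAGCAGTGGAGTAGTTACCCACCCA
Igkv3-9: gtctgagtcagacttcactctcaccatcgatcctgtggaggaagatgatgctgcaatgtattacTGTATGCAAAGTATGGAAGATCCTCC
Igkv5-39: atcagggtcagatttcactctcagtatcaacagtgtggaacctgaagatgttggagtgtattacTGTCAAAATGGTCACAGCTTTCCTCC
Igkv1-117: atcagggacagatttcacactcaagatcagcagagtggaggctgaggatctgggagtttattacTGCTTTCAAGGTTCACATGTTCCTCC

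The windows of Iglv1 and Iglv2 differed at 3 of 90 bases, and the whole transcripts were 90.5% identical over 391 aligned columns. Iglv3 was far from both, at 49.3% identity with Iglv1 and 51.9% with Iglv2. The 3 lambda windows lie on the minus strand at chr16:19085017-19085106 (Iglv1), chr16:19260401-19260490 (Iglv2) and chr16:19241207-19241296 (Iglv3). The kappa members run from 67555497 to 70704177 on chromosome 6. Their windows are at chr6:70406469-70406558 (Igkv6-15, minus strand), chr6:68631963-68632052 (Igkv10-96, minus), chr6:69607275-69607364 (Igkv4-55, minus), chr6:70588688-70588777 (Igkv3-9, plus), chr6:69900424-69900513 (Igkv5-39, minus) and chr6:68121738-68121827 (Igkv1-117, plus). In this annotation 75 kappa members lie on the plus strand and 85 on the minus strand. The minus-strand members held 59.2% of the kappa CPM in sorted cells.

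Similar segments can share reads. Among the 163 annotated transcripts 117 held at least 1 stretch of 50 bases that another member also holds, and 18 members shared over 50% of such stretches. Values of single segments below are therefore uncertain where a near copy exists, since the sources used here do not say how shared reads were assigned. The deposited TPM, a level scaled to transcript length and library, and the counts ranked most segments alike, but not all. Over the 53 segments with a mean of at least 5 CPM (counts scaled to the library total), TPM per CPM had a median of 5.71. Igkv13-84 had 21.8 TPM per CPM, with 48.3% of its 50-base stretches shared, and Igkv4-59 had 12.5, with 74.3% shared. These 2 were the segments above 2 times the median.

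Total counts ranged from 6723357 to 14496314 over the 12 sorted libraries and were 7605290 and 8034138 in bulk liver. Light chain V counts were 7953 to 14189 in sorted libraries and 23 and 14 in bulk liver. The sorted libraries carried B cell markers: 12 of 12 were called higher than in bulk liver, beside 41.8% of all genes tested, among them Ms4a1, and their summed level was 6301 to 7010 CPM against 13.3 and 16.9 CPM in bulk. Alb, the hepatocyte gene of serum albumin, had 50.7 ± 12.3, 55.3 ± 1.2, 48.2 ± 7.2 and 40.6 ± 5.1 CPM from 2500, 5000, 10000 and 20000 cells (SD, n = 3 each), against 20982 ± 388 CPM in bulk liver (n = 2). T cell markers and markers of monocytes and macrophages were present as well, with summed levels of 1398 to 1646 CPM and 10570 to 12497 CPM.

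Most light chain V segments that could be tested were higher in sorted cells than in bulk liver. Of 91 members that passed the filter on low counts, 85 were called higher, 0 were called lower and 6 were not called, by the edgeR quasi-likelihood F test with Benjamini-Hochberg adjustment over all genes and a threshold of 0.05. Over all 16294 genes tested, 41.8% were called higher in sorted cells. The other 72 members were not tested. A low-count segment passed only through the sorted libraries, so this count does not describe all 163 members.

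Summed over all members, the level was 951, 799.6 and 948 CPM in the libraries of 2500 cells. It was 1029, 979 and 1249.7 CPM at 5000 cells, 978, 979 and 1049.8 CPM at 10000 cells, and 1183, 988 and 1040.3 CPM at 20000 cells. Bulk liver had 3.02 and 1.74 CPM. No sorted library came near either bulk library, and the ratio of the mean levels, with TMM scaling factors (trimmed mean of M values), was 185.

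Iglv1, the most abundant lambda V segment, had 8175 counts over the 12 sorted libraries and 6 over both bulk libraries, the most of any member in each. It was higher in sorted cells by 6.31 on the log2 scale (SE 0.43, edgeR adjusted p = 6.6e-10). Iglv3 had 5876 counts in sorted cells and 1 in bulk liver, and its ratio of TMM-scaled CPM was 349 with a counting interval of 62.7 to 13800. Iglv2 had 1863 counts in sorted cells and 1 in bulk liver, with a ratio of 111 and an interval of 19.9 to 4377. Among kappa segments Igkv6-15 had 5953 counts in sorted cells and 2 in bulk liver, a ratio of 177 with an interval of 49.0 to 1461.

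Of the 91 tested members 67 had no count in bulk liver, so that only a lower bound can be given, set by a floor of 3 counts in the 2 bulk libraries together (0.392 TMM-scaled CPM). The bound was highest for Igkv1-135, at least 79.7-fold higher in sorted cells, and Igkv1-110 was at least 59.7-fold higher. The median log2 fold change over the 91 members was 7.43 as fitted and 4.21 with such members at their bound, beside 0.17 over all genes. Igkv4-55 was called with an adjusted p of 0.045 in edgeR (at least 44.0-fold higher, 0 bulk counts). That call was lost under 11 alternatives, 10 of which leave out 1 library, with adjusted p up to 0.14 in edgeR. Without the library of its highest level, described below, it was kept (adjusted p = 0.00012, edgeR). The 6 members not called were Igkv11-106, Igkv4-81, Igkv6-29, Igkv3-3, Igkv4-60 and Igkv8-34, which are named because they are few.

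Every member annotated as a V gene had at least 1 count in sorted cells. GENCODE annotates 103 members as V genes and 60 as V pseudogenes. All 103 V genes were detected, meaning at least 1 count, in at least 1 sorted library, and 84 of them in all 12. They held 99.2% of the sorted light chain V counts. Of the pseudogenes 35 of 60 were detected, 2 of them in all 12 libraries, with 0.760% of the counts. Those 2 were Igkv4-77 (287 counts over the 12 libraries) and Igkv4-73 (260 counts), named after their values were seen.

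In all, 86 members were detected in all 12 sorted libraries and held 98.7% of the light chain V counts. Another 52 were detected in 1 to 11 libraries, 11 of them in exactly 1. No member with a mean above 2.60 CPM was missing from a sorted library. In bulk liver 24 members were detected, and each of these was also detected in sorted cells.

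By library, 104, 104 and 108 segments were detected from 2500 cells. The numbers were 108, 110 and 107 from 5000 cells, 112, 111 and 108 from 10000 cells, and 111, 119 and 110 from 20000 cells. Bulk liver gave 17 and 11. The counts at 2500 cells were below those at 20000 cells without overlap, while neighbouring cell numbers overlapped or touched.

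Deeper libraries detect more segments, so the number expected at the depth of the smallest library (6723357 counts) was calculated. It was 103.3 ± 2.7 at 2500 cells, 105.0 ± 0.64 at 5000 cells, 107.4 ± 1.6 at 10000 cells and 111.4 ± 2.4 at 20000 cells (mean ± SD, n = 3 each), against 12.4 ± 4.1 in bulk liver (n = 2). At an equal number of 7953 light chain V counts the means were 105.1, 105.9, 108.8 and 112.5. The order by cell number was the same in both. It was lost with a minimum of 5 counts at full depth, which gave 89.7 ± 1.5, 94 ± 3.6, 93.0 ± 2.6 and 90.0 ± 4.4 segments. At full depth the difference between 2500 and 20000 cells thus lay in segments with 1 to 4 counts. The libraries of 20000 cells were the shallowest in mean, and depth was not made equal for this minimum, so the loss of order cannot be told apart from depth. Over the 3 libraries of a cell number together, 120, 124, 121 and 128 segments were detected from 2500, 5000, 10000 and 20000 cells. Of these, 2, 3, 0 and 6 were detected at that cell number and at no other.

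**Figure D1:**
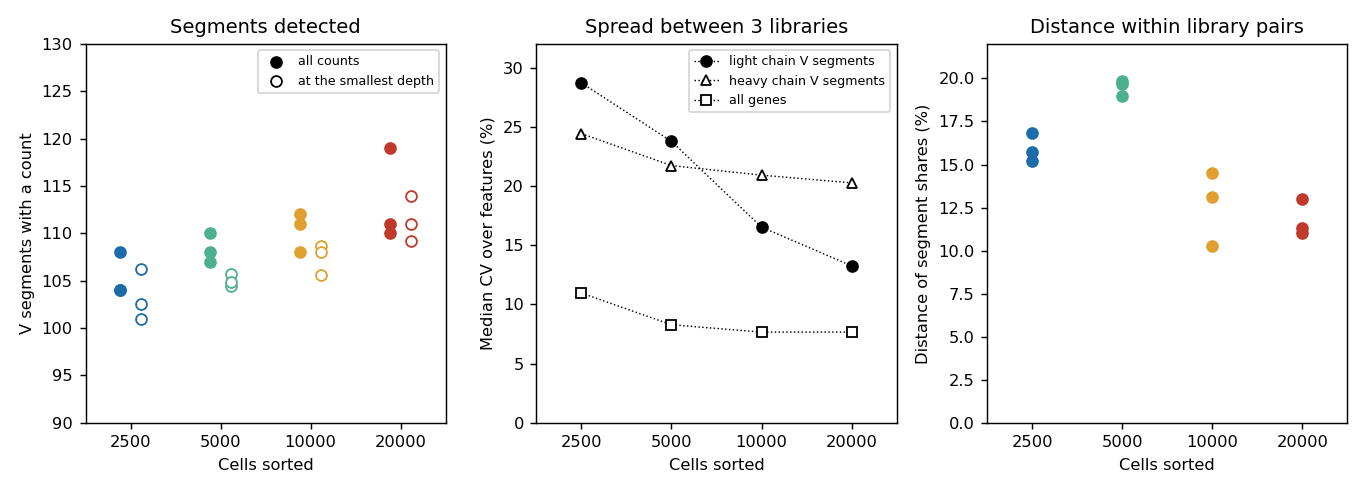
Left, number of V segments with a count in each sorted library (filled) and the number expected at the smallest depth (open), by cells sorted. Middle, median coefficient of variation between the 3 libraries of a cell number over features with at least 5 CPM, and right, the distance between the segment shares of each of 3 library pairs. The expected number runs from a mean of 103.3 at 2500 cells to 111.4 at 20000 cells, and the median CV of light chain V segments from 28.7% to 13.3%.

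Lambda segments made up the smaller share of light chain V counts in every library. The share was 12.8%, 14.8% and 12.8% from 2500 cells, 12.8%, 15.7% and 11.3% from 5000 cells, 14.5%, 16.9% and 14.0% from 10000 cells, and 12.9%, 13.7% and 13.0% from 20000 cells. The groups overlapped, with means of 13.5 ± 1.2%, 13.3 ± 2.2%, 15.1 ± 1.6% and 13.2 ± 0.45% (SD, n = 3 each). Over the 12 libraries the mean was 13.8 ± 1.5%, which is a kappa to lambda ratio of 6.34 ± 0.78.

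Each of those shares rests on 7953 to 14189 counts, so counting error was small. The exact (Clopper-Pearson) 95% interval at the highest library, replicate 2 of 10000 cells, was 16.2% to 17.7%, and at the lowest, replicate 3 of 5000 cells, 10.8% to 11.9%. In bulk liver the shares were 17.4% (interval 4.95% to 38.8%) and 28.6% (8.39% to 58.1%), from 4 lambda counts in each library. At that depth no difference from sorted cells was detectable. Intervals and floors cover counting error only, since reads were amplified without molecular identifiers.

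By deposited TPM, which allows for transcript length, the lambda share of the V level was 11.5 ± 1.4% over the 12 sorted libraries. The constant genes gave a higher lambda share. Counts of Iglc1, Iglc2 and Iglc3 made up 25.6 ± 1.1% of all light chain constant counts (SD, n = 12), with Igkc as the rest, and 28.9 ± 1.3% by TPM. The constant share was above the V share in every sorted library. It was 25.6 ± 0.24%, 24.4 ± 1.4%, 26.0 ± 1.5% and 26.3 ± 0.23% at 2500, 5000, 10000 and 20000 cells, and 24.0% and 30.1% in bulk liver. Counting of near copies and overlapping annotation could enter either share, and their part in the gap was not tested.

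**Figure D2:**
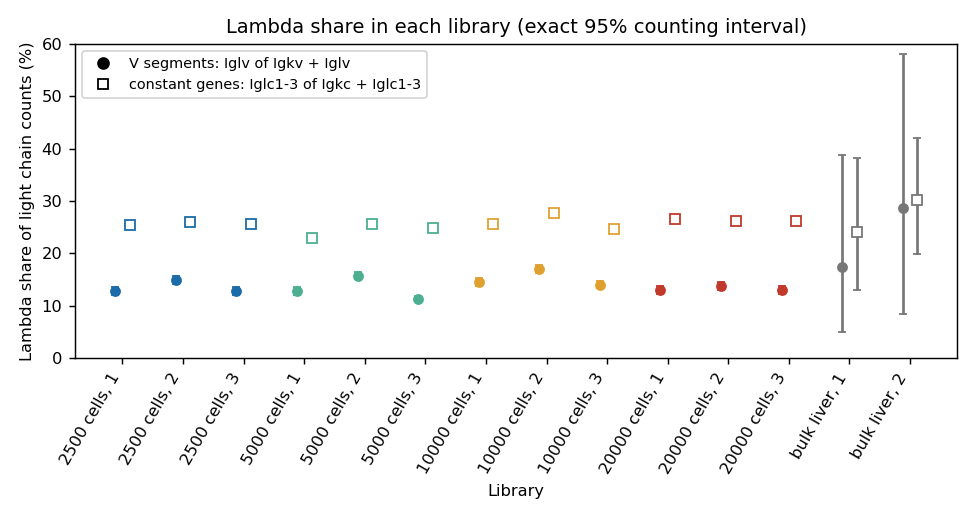
Lambda share of light chain counts (%) in each of 14 libraries, from V segments (filled circles) and from constant genes (open squares), with exact 95% counting intervals. Sorted libraries lie between 11.3% and 16.9% for V segments and between 22.9% and 27.6% for constant genes, and the 2 bulk libraries have wide intervals.

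Iglv1 was the most abundant light chain V segment, at 398 ± 90.2 TPM (SD, n = 12). Its level was 62.3, 58.3 and 64.0 CPM from 2500 cells, 64.4, 75.7 and 71.0 CPM from 5000 cells, 52.2, 101 and 87.9 CPM from 10000 cells, and 82.1, 70.5 and 67.9 CPM from 20000 cells. The spread at 10000 cells spanned the other groups. Bulk liver had 0.394 and 0.373 CPM.

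Iglv3, the segment unlike the other lambda pair, averaged 189 ± 50.1 TPM. It had 39.2, 43.7 and 41.3 CPM from 2500 cells, 51.0, 63.1 and 51.9 CPM from 5000 cells, 72.7, 49.3 and 45.2 CPM from 10000 cells, 52.4, 48.4 and 53.8 CPM from 20000 cells, and 0.131 and 0 CPM in bulk liver. The 2500-cell libraries were the lowest, but the difference from 20000 cells did not pass (log2 −0.31, SE 0.15, adjusted p = 0.37, edgeR). Iglv2 averaged 105 ± 13.3 TPM and was among the most even segments, with 20.1, 16.4 and 16.2 CPM from 2500 cells, 15.97, 15.2 and 18.9 CPM from 5000 cells, 16.7, 15.0 and 14.0 CPM from 10000 cells and 18.3, 16.5 and 13.1 CPM from 20000 cells. All 4 groups overlapped.

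The kappa segments were led by Igkv6-15 at 304 ± 83.6 TPM, Igkv10-96 at 276 ± 134 TPM and Igkv1-117 at 231 ± 30.4 TPM (SD, n = 12). Igkv6-15 and Igkv10-96 overlapped in their ranges, 233.9 to 550.7 TPM and 154 to 668 TPM. Igkv1-135 had 183 ± 37.3 TPM, Igkv1-110 165 ± 33.8 TPM, Igkv6-23 161 ± 50.1 TPM and Igkv19-93 157 ± 36.5 TPM. Their ranges of mean ± SD overlapped, and their differences within libraries were not tested. Igkv12-46 (132 ± 27.4 TPM), Igkv14-111 (130 ± 58.2 TPM) and Igkv12-44 (125.0 ± 23.5 TPM) complete the 10 kappa segments with the highest mean CPM.

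**Figure D3:**
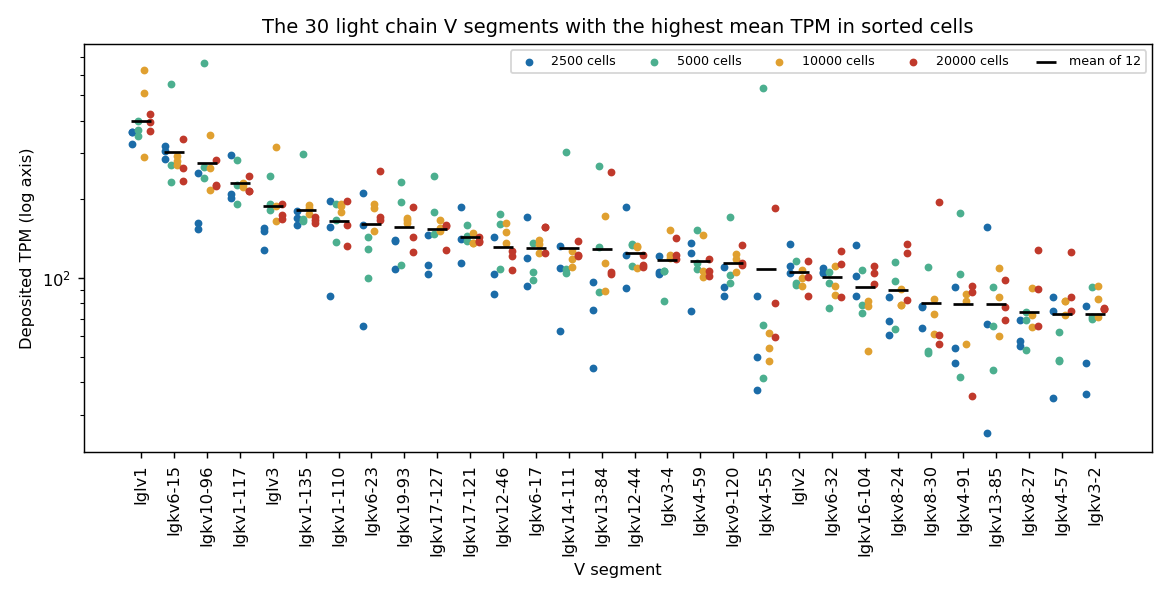
Deposited TPM (log axis) of the 30 light chain V segments with the highest mean in sorted cells, 1 point per library, coloured by cells sorted, with the mean of the 12 libraries as a bar. Iglv1 averages 398 TPM and Igkv6-15 304 TPM, and single points far above the rest mark segments such as Igkv4-55, whose highest library has 532 TPM.

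By family, the number after Igkv, Igkv6 held 16.3% of the kappa TPM with 9 members and Igkv4 15.0% with 33 members. Igkv1 followed with 11.6%, Igkv8 with 7.70%, Igkv12 with 7.38% and Igkv3 with 7.21%. Igkv6, at 873 ± 122 TPM, and Igkv4, at 805 ± 153 TPM, overlapped in their ranges, 702 to 1128 TPM and 635 to 1126 TPM. Their difference within libraries was not tested. The families at the bottom were Igkv18, Igkv7 and Igkv20, each with 1 member and a mean near 1 TPM.

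Use was spread over many segments. The effective number, which is the number of equally used segments that would give the same evenness (the exponential of the Shannon entropy of the count shares), was 54.6 ± 1.7 from 2500 cells, 49.5 ± 2.4 from 5000 cells, 53.3 ± 1.4 from 10000 cells and 55.8 ± 0.40 from 20000 cells (SD, n = 3 each). The 5000-cell libraries were the lowest in mean, and all 3 lay below every library of the other cell numbers. The 10 segments with the most counts in sorted cells held 40.3% of the counts.

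By TPM, Iglv1 was the leading segment in 8 of 12 sorted libraries. The exceptions were the 3 libraries of 5000 cells, led by Igkv4-55, Igkv10-96 and Igkv6-15, and replicate 1 of 10000 cells, led by Igkv10-96 (by counts, Iglv3 led that library). The leading segment's share of V counts was 6.86 ± 0.38%, 9.57 ± 1.5%, 8.72 ± 1.5% and 6.87 ± 0.31% at 2500, 5000, 10000 and 20000 cells.

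No single V segment was called different between the sorted cell numbers. With 88 members tested in edgeR, 0 passed for a slope against log2 cell number, beside 0.0811% of all 14795 genes. Likewise 0 passed for any difference between the 4 cell numbers (0.297% of all genes), for 2500 against 20000 cells (0.419%), for 5000 against 20000 cells (0.0879%) and for 10000 against 20000 cells (0.304%). At an unadjusted p under 0.05 there were 8, 11, 11, 7 and 5 members in those tests (edgeR). The share of all genes at that threshold was not counted, so these numbers cannot be set against the background. DESeq2 also called 0 members in each test after adjustment. The shares of all genes called after adjustment are so small that 0 of 88 is near the background. With no filter on low counts, 17 of 138 members passed for any difference, beside 605 of 28315 genes, described with the alternatives.

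The summed level was lowest from 2500 cells: 899 ± 86.5 CPM, against 1070.3 ± 101 CPM from 20000 cells (SD, n = 3 each). All 3 libraries of 2500 cells lay below the other 9. Of the 88 members 62 had a negative fitted log2 difference between 2500 and 20000 cells (70.5%, beside 48.2% of all genes). The median was −0.21 beside 0.01 over all genes. Against the same 20000 cells, 51 of the 88 were negative at 5000 cells (58.0%) and 61 at 10000 cells (69.3%). Their medians were −0.08 and −0.12. A majority of negative differences was thus not particular to 2500 cells. Without replicate 1 of 20000 cells the median at 2500 cells was −0.13, over 92 members tested. Between 2500 and 20000 cells the smallest adjusted p belonged to Igkv8-24, named after its values were seen. It had 16.03, 13.0 and 10.3 CPM from 2500 cells, against 22.8, 14.6 and 26.1 CPM from 20000 cells (log2 −0.68, SE 0.23, adjusted p = 0.19, edgeR). These groups overlapped.

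Of the plasma cell markers, Jchain and Igha were also low at 2500 cells. Of 9 tested, these 2 were called lower from 2500 than from 20000 cells, beside 0.419% of all genes called. Jchain, which joins secreted IgM and IgA into polymers, had 0.349 ± 0.33 CPM from 2500 cells against 57.6 ± 1.3 CPM from 20000 cells (adjusted p = 0.00015, edgeR). Igha, the IgA constant region, had 13.2 ± 13 CPM against 239 ± 51.8 CPM (adjusted p = 0.046, edgeR, lost under 11 of 17 alternatives).

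The summed level of the 10 plasma cell markers was 759 to 793 CPM from 2500 cells, 968 to 1174 CPM from 5000 cells, 1053 to 1128 CPM from 10000 cells, 1020 to 1124 CPM from 20000 cells and 605 and 606 CPM in bulk liver. Tnfrsf17, the plasma cell receptor BCMA, had 0 counts in all 3 libraries of 2500 cells, and Jchain in 1 of them. At 5000, 10000 and 20000 cells Tnfrsf17 had just 0.697, 0.656 and 0.651 CPM, and it was not tested. The other 7 tested markers were not called between 2500 and 20000 cells. Xbp1, a factor of antibody secretion, had 308 ± 13.7 CPM against 299 ± 8.9 CPM. Mzb1 went the other way, with 86.8 ± 9.9 CPM against 112 ± 11.2 CPM (log2 −0.37, SE 0.10, adjusted p = 0.10, edgeR). The sum at 2500 cells thus differs from the other cell numbers mainly by Igha and Jchain, and the bulk sum is mainly Xbp1 (374 ± 2.1 CPM) and Sdc1 (223 ± 1.9 CPM), both of which were called lower in sorted cells. The part of these markers in the V level was not tested. B cell markers were no lower, with a summed 6310 to 7010 CPM from 2500 cells against 6301 to 6512 CPM from 20000 cells. Igkc, the kappa constant region, had 2400 ± 215 CPM against 2719 ± 164 CPM (log2 −0.18, SE 0.06, adjusted p = 0.22, edgeR).

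By median spread at a minimum of 5 CPM, replicate libraries differed more in their segments when fewer cells were sorted. Over the 53 segments with a mean of at least 5 CPM, the median coefficient of variation (CV, SD over mean) between the 3 libraries was 28.7% at 2500 cells, 23.8% at 5000 cells, 16.5% at 10000 cells and 13.3% at 20000 cells. Counting error alone would give medians of 9.96%, 9.11%, 9.25% and 9.49%. Over all 11072 genes at the same minimum the medians were 10.96%, 8.28%, 7.66% and 7.66%. Counting error alone would give 5.20%, 4.86%, 5.04% and 5.62% there. The median CV beyond counting error was 25.5%, 22.7%, 13.7% and 9.42% for the segments. For all genes it was 9.31%, 6.29%, 5.34% and 4.61%. In the fit over the 12 sorted libraries the median biological coefficient of variation was 26.3% for the light chain V segments tested and 12.4% for all genes.

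The order by cell number depends on the segments and on the measure used. Over the 16 segments with at least 20 CPM the medians were 19.1%, 21.6%, 8.74% and 9.97%. Without replicate 3 of 2500 cells the median at 2500 cells was 18.4%, and without replicate 1 of 10000 cells that at 10000 cells was 10.4%. A CV from 2 libraries is not the same measure as one from 3. These 2 values therefore cannot show whether the order rests on single libraries. In replicate 2 of 2500 cells 7 of the 53 segments were below 0.5 times their median over the 12 libraries, the most in any sorted library.

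A distance between whole repertoires, the share of V counts that would have to move to another segment to make a pair of libraries equal, gave another order. It was 15.9 ± 0.84% within pairs at 2500 cells, 19.5 ± 0.45% at 5000 cells, 12.6 ± 2.2% at 10000 cells and 11.8 ± 1.1% at 20000 cells (mean ± SD of 3 pairs, which share libraries). Pairs from different cell numbers were 15.1 ± 2.1% apart (54 pairs). Without the leading segment of each library the distances were 16.8%, 14.7%, 11.4% and 12.4%. The 5000-cell value thus rested in part on its leading segments, while the 2500-cell value did not. Without them the 5000-cell distance was still above those at 10000 and 20000 cells. A chi-square of counts by segment and library, per degree of freedom, was 7.97, 22.4, 8.47 and 6.40 at 2500, 5000, 10000 and 20000 cells. By this measure, which was not adjusted for the number of counts, 2500 cells lay below 5000 and 10000 cells.

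Single segments stood out in single libraries. Igkv4-55 had the highest CV of the 53 segments, 130%, and was the only one above 5 times its median in a library. It had 14.9, 7.04 and 8.48 CPM from 2500 cells, 96.8, 6.90 and 12.8 CPM from 5000 cells, 11.1, 8.24 and 9.24 CPM from 10000 cells, and 14.9, 31.7 and 10.99 CPM from 20000 cells. In replicate 1 of 5000 cells its 824 counts made 9.41% of all V counts, 8.77 times its median level, while the other libraries held 71 to 294 counts. Of its 50-base stretches 53.3% are shared with other members.

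Igkv10-96 led replicate 2 of 5000 cells with 1579 counts. Its levels were 25.7, 26.9 and 40.1 CPM from 2500 cells, 42.3, 109 and 38.0 CPM from 5000 cells, 55.7, 33.8 and 42.9 CPM from 10000 cells and 48.2, 34.8 and 36.6 CPM from 20000 cells. Igkv6-15 was the one that led replicate 3 of 5000 cells. It had 53.2, 51.3 and 44.2 CPM from 2500 cells, 40.4, 46.3 and 102 CPM from 5000 cells, 44.9, 46.9 and 46.8 CPM from 10000 cells and 62.6, 40.4 and 45.4 CPM from 20000 cells. Each of the 3 libraries of 5000 cells thus had its own leading kappa segment. Not all of these stood alone. In replicates 1, 2 and 3 of 5000 cells, 2, 1 and 4 of the 53 segments were above 2 times their median over the 12 libraries.

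The sharpest case lay among low segments and was picked out after its values were seen. Igkv3-9 had 272 counts in replicate 3 of 10000 cells and 0 to 7 counts in each of the other 11 sorted libraries. That is 27.9 CPM against at most 0.822 CPM. In that library it made 2.66% of V counts, and only 20.7% of its 50-base stretches are shared with other members.

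The other segments of high CV stood less apart in their highest library. That library was 1.63 (Igkv13-84), 1.70 (Igkv4-68), 2.30 (Igkv9-124) and 2.38 (Igkv5-39) times the next in CPM. For Igkv4-55 it was 3.05 times the next. Igkv9-124 (CV 75.4%) had 243 counts in replicate 3 of 20000 cells, against 38 to 142 elsewhere. Igkv4-68 (70.2%) was highest in replicate 1 of 20000 cells, with 122 counts against 29 to 104. Igkv13-84 (62.9%) was highest in replicate 1 of 5000 cells, the library with the Igkv4-55 peak, with 132 counts against 17 to 88. Its TPM per CPM was the highest of the 53 segments, as given above. Igkv5-39 (59.8%) had 267 counts in replicate 1 of 10000 cells against 55 to 123.

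At the other end, Igkv17-121 had a CV of 8.78% over the 12 libraries, with 17.6 to 24.3 CPM. Iglv2 followed with 12.3% and Igkv1-117 with 14.3%. These even segments were not the rarest or the most abundant: their ranks by TPM were 11, 21 and 4.

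**Figure D4:**
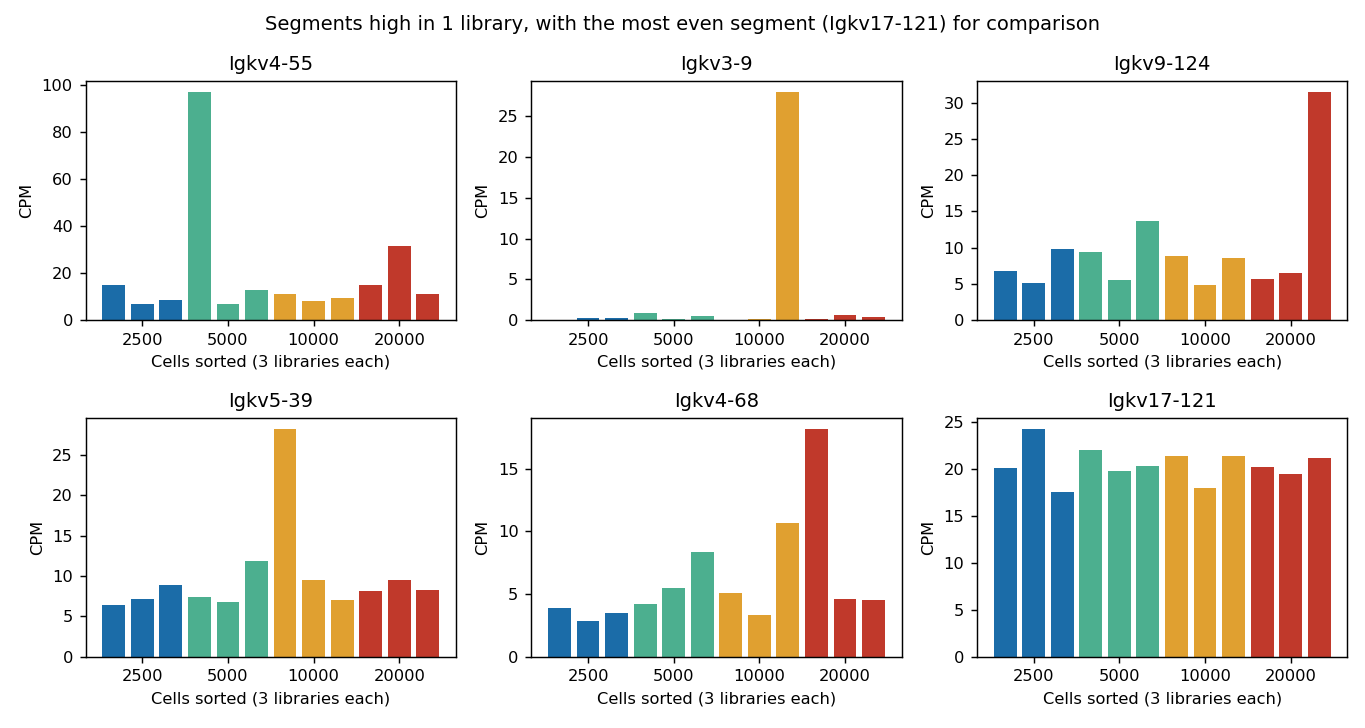
CPM in each of the 12 sorted libraries, 3 per cell number from 2500 (left) to 20000 (right), for 5 segments that were high in 1 library and for Igkv17-121. Igkv4-55 reaches 96.8 CPM in 1 library of 5000 cells and Igkv3-9 27.9 CPM in 1 library of 10000 cells, while Igkv17-121 stays between 17.6 and 24.3 CPM.

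Each lambda V segment was set beside each lambda constant gene over the 12 sorted libraries, giving 9 pairs, because in the mouse locus V segments join to particular J and C genes by position. These relations were chosen after values had been seen. Iglv1 and Iglc1, on log2 TMM-scaled CPM, had Pearson's r = 0.83 (permutation p = 0.00069, adjusted over 9 pairs 0.0062) and Spearman's rho = 0.78 (permutation p = 0.0041, adjusted 0.037). Without the 2 libraries farthest from the median of Iglv1, both of 10000 cells, r was 0.68, and with group means removed it was 0.90. Without the same 2 libraries Iglv1 had r = 0.66 with Iglc3 and 0.45 with Iglc2. The gap between Iglc1 and Iglc3 thus rested on those 2 libraries.

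For Iglv3 and Iglc2, r was 0.53 (permutation p = 0.074, adjusted 0.33) and rho 0.66 (permutation p = 0.022, adjusted 0.10), which did not pass. Over all 12 libraries the other 7 pairs had r between −0.28 and 0.37, and their smallest adjusted permutation p was 0.68 for r. Without the 2 libraries farthest from the median of the V segment, their r lay between −0.34 and 0.66. With 3 libraries at each cell number no correlation was given within one. The points share library and depth. Iglc1 had 167 ± 24.1, 159 ± 12.6, 210.2 ± 59.3 and 202 ± 5.9 CPM at 2500, 5000, 10000 and 20000 cells.

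**Figure D5:**
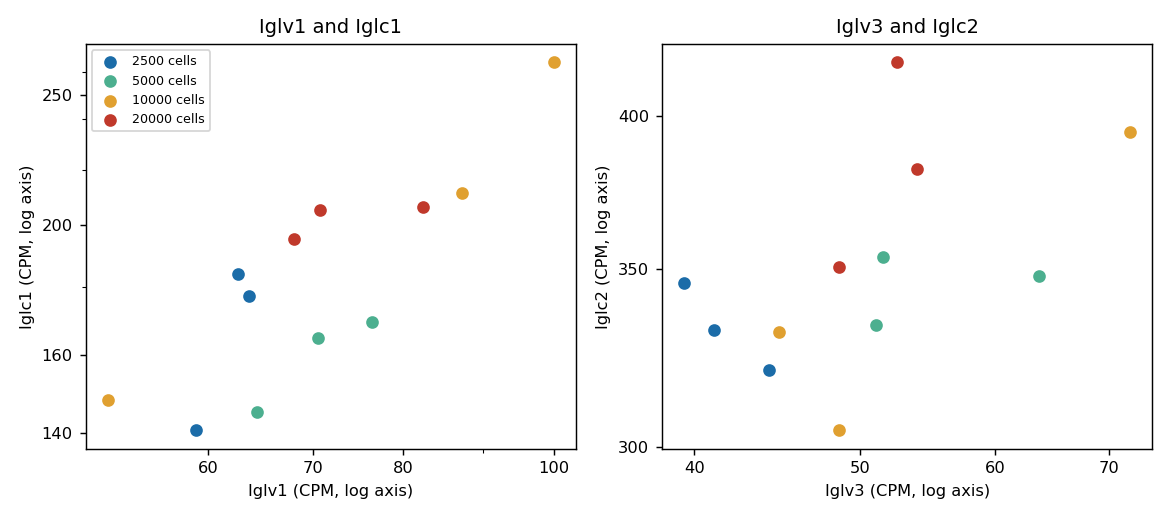
TMM-scaled CPM (log axes) of Iglv1 against Iglc1 and of Iglv3 against Iglc2 in the 12 sorted libraries, coloured by cells sorted. Iglv1 and Iglc1 have r = 0.83 and Iglv3 and Iglc2 r = 0.53.

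The other genes of the light chain pathway were taken from lists, and no member of these lists was called between 2500 and 20000 cells or for a slope. Of 12 constant and joining genes 11 were tested and all 11 were called higher in sorted cells than in bulk liver, beside 41.8% of all genes tested. Igkc had 2575 ± 191 CPM (SD, n = 12) against 5.67 ± 0.96 CPM in bulk (n = 2). All 4 partners of the light chain in the B cell receptor were higher: the signalling subunits Cd79a and Cd79b and the heavy chains Ighm and Ighd. The 6 factors known to act at light chain genes were higher as well, with Pou2af1, the B cell coactivator of octamer-binding factors, at a log2 fold change of 8.503 (SE 0.23, adjusted p = 1.0e-17, edgeR).

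Genes of earlier B cell stages differed in level. Igll1, part of the surrogate light chain of precursor B cells, had 0 counts in all libraries and Vpreb2 had 1 count in all, while Vpreb1 and Vpreb3, with 396 and 3261 counts over the 12 sorted libraries, were called higher in sorted cells. Rag1 and Rag2, which cut V segments for joining, had 12 and 22 counts over the 12 sorted libraries and 0 in bulk liver. Dntt, which adds bases at joins, was called higher in sorted cells (log2 2.73, SE 0.28, adjusted p = 2.2e-08, edgeR).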

How the data were processed

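RNA was sequenced from 12 samples of sorted CD45+ liver cells and 2 of bulk liver, after SMART-seq v4 cDNA synthesis, per the labels' protocols. The authors deposited raw counts per gene and TPM per gene, 1 column per sample. The tools named are featureCounts 1.5.1, RSEM 1.3.0, STAR 2.5.2b and DESeq2 1.34.0, with GRCm38, per the submitters' processing notes. The role of each tool, the annotation, the strand setting and the treatment of reads that map to several segments are not given in the sources used here. The other deposited table of transformed values was not used. The number of value columns left unmapped was 0.

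Symbols were matched for 48348 of 48794 IDs. Coordinates, biotypes and sequences are from GENCODE M21 (GRCm38). CPM use library totals unless TMM factors are named. Genes were tested with edgeR 4.0.16 in R 4.3.3 (quasi-likelihood F test, robust, TMM, filterByExpr by group), adjusted over all genes. The fit was tested on simulated data. DESeq2 1.42.0 was an alternative. Numbers detected at equal depth are hypergeometric expectations. Detection, sums, shares and spread are descriptions with no p. Correlations used two-sided tests of 100000 permutations.

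The named segments are all Iglv members, the 10 Igkv members of highest mean CPM, the 5 of highest and 3 of lowest CV with a mean of at least 5 CPM, and those above 5 times their median in 1 library. The members and lists were chosen with earlier results of these data known. The octamer motif of V promoters was not searched here.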

Additional observations from a re-analysis of the deposited data

How the results depend on the processing

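Against bulk liver the number of members called higher was 84 with median-ratio size factors, 89 with library totals, 90 of 138 tested with no filter, 85 with DESeq2 and 79 to 85 with 1 library left out. The replicate block left it at 85. Over all genes, 6410, 10737 and 6313 of 16294 were called higher with median-ratio size factors, library totals and DESeq2. With the replicate block 6720 were, with no filter 7538 of 29250, and with 1 library left out 6245 to 6934. Library totals moved the median of all genes to a log2 of 1.37, against 0.17 with TMM factors. Between cell numbers, no filter gave 17 of 138 members for any difference and 0 for the slope. It gave 7 for 2500, 4 for 5000 and 4 for 10000 against 20000 cells. Of all 28315 genes, 605, 19, 397, 203 and 286 passed in these tests, in that order. Of the 17, 16 were also tested with the filter, among them Igkv4-55 and Igkv10-96, and the other was Igkv3-9. The cause was not tested. The other scalings, DESeq2, the replicate block and leaving out 1 library gave 0 in all 5 tests. Same-numbered samples did not deviate together (correlations −0.10 to 0.079 in 18 pairs), so the numbers were not taken as pairs.

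Group values are given for 2500, 5000, 10000 and 20000 cells in that order. At least 5 counts gave 89.7, 94, 93.0 and 90.0 segments detected, and 0 in bulk. TPM above 0 gave 105.3 at 5000 and 107.7 at 10000 cells. The depth of the smallest library gave 105.0 and 107.4 at those numbers, and equal V counts, chosen after seeing the data, 105.9 at 5000. Summed TPM were 5397, 6332, 6193 and 6234, and 11.9 in bulk, where TMM CPM were 4.87. Lambda shares by TPM were 11.4%, 10.8%, 12.9% and 10.8%, and by constant genes 25.6%, 24.4%, 26.0% and 26.3%. The effective number by TPM was 57.3, 52.3, 56.3 and 59.3. Without the leading segment it was 52.7, 56.4 and 57.4 at 5000, 10000 and 20000, and the next segment's share was 5.97%, 7.26%, 5.54% and 5.50%. By TPM the leading share at 20000 was 6.34%. At 20 CPM or more the median CV was 19.1% at 2500 and 8.74% at 10000. The distance without the leading segment was 16.8% at 2500 and 14.7% at 5000, and by TPM 16.9% at 2500.

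With 1 library left out the median CV ranged over 18.4% to 23.6%, 16.2% to 29.2%, 10.4% to 12.5% and 9.65% to 12.5%. Set beside each other, these ranges overlapped at 2500 and 5000 cells, and the last 2, at the higher cell numbers, overlapped as well. A CV from 2 libraries is not the same measure as one from 3, so the ranges were not set against the medians from all 3. The distance ranged over 15.2% to 16.8%, 19.0% to 19.9%, 10.3% to 14.5% and 10.998% to 13.0%. Iglv1 with Iglc1 kept r at 0.73 to 0.87 with 1 library left out. Of 475 values for 25 named genes against bulk liver, 464 kept their call and direction, and the 11 others were those of Igkv4-55. Bulk liver, with 23 and 14 V counts, limits what can be said of single segments there.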

Other observations

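Heavy chain and T cell receptor V segments were measured in the same sorted libraries. Over the 34 heavy chain V segments with a mean of at least 5 CPM the median CV between libraries was 24.4%, 21.7%, 20.9% and 20.3% at 2500, 5000, 10000 and 20000 cells. Over the 9 T cell receptor V segments it was 16.7%, 26.1%, 11.6% and 13.8%. The light chain values were 28.7%, 23.8%, 16.5% and 13.3%, and the differences between the 3 sets were not tested.

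The joining segments had few counts. From the 4 functional kappa joining segments and Igkj3, a pseudogene in mice, the table held 324 counts of Igkj1, 669 of Igkj2, 1178 of Igkj3, 759 of Igkj4 and 842 of Igkj5 over the 12 sorted libraries. Iglj3 had 283 counts and Iglj2 had 0. Reads over unspliced or overlapping sequence cannot be told apart from joined transcripts in these counts.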
